A study of Mus musculus with 6 samples.

Results

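The matrix metalloproteinases (MMPs), the ADAMTS proteases with their ADAMTS-like relatives, and the tissue inhibitors of metalloproteinases (TIMPs) were measured in TM3 cells, a mouse line of Leydig cell origin; Leydig cells make testosterone in the interstitium of the testis. The members were the protein-coding genes whose symbols start with Mmp, Timp, Adamts or Adamtsl and a number, found through the accession of each array probe: 51 genes with 83 probes, of 23462 named genes on the array. The control group was TM3 cells without 4-nitrophenol (PNP, labelled 0 µM), and the other group was TM3 cells given 10 µM PNP for 24 h. PNP is a nitrated phenol that forms when the insecticide parathion breaks down. Each group had 3 samples of total RNA, each on its own 1-colour Agilent array, and all 6 arrays shared 1 slide and 1 scan. The sources used here do not say whether the samples of a group were separate cultures, so the spread behind each p-value is that between these samples and may be technical.

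MMPs are zinc-dependent proteases that are made as inactive precursors and cut collagens, proteoglycans and other proteins outside the cell. ADAMTS proteases are secreted relatives that carry thrombospondin repeats, and ADAMTS-like proteins have those repeats but no protease domain. TIMPs bind the active site of MMPs and block it, and Timp3 also inhibits several ADAMTS proteases. Many MMP genes are switched on through AP-1, the pair of Fos and Jun proteins, at a short DNA site close to the start of the gene.

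Of 23 MMP genes, 10 lie together on chromosome 9, and the promoters of 7 of them are shown because they hold an AP-1 site that was in no promoter window of members elsewhere. RefSeq promoters (build GRCm38.p6) were found for 36 of the 51 members, in 39 windows of 250 bases before a transcription start. The AP-1 site TGAGTCA, searched on both strands, was in 7 of the 39 windows, against 4.46% of 32851 windows of the same length over all genes. All 7 belonged to the chromosome 9 genes, which had 12 windows, and 0 of the 27 windows of other members held it. For Mmp12 the window with the site is that of its start site 2, and a window of another Mmp12 start did not hold it. The TATA box, searched on both strands as TATAAA with no overlap between the motifs, was in 10 of the 39 windows against 12.4% of all windows, and 7 of these were in the chromosome 9 group. The last 120 bases before the start follow, 5′ to 3′ in the direction of the gene, with both motifs in capitals. They are chr9:7445702-7445821 (Mmp3, plus strand), chr9:7502222-7502341 (Mmp10, plus strand), chr9:7272394-7272513 (Mmp13, plus strand), chr9:7347254-7347373 (Mmp12, plus strand), chr9:7388027-7388146 (Mmp1b, minus strand), chr9:7464021-7464140 (Mmp1a, plus strand), chr9:7691970-7692089 (Mmp7, plus strand).
Mmp3: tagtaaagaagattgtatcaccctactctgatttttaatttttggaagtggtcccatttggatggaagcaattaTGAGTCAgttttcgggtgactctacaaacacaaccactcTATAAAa
Mmp10: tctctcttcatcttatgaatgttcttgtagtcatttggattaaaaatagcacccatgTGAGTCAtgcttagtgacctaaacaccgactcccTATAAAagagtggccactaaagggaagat
Mmp13: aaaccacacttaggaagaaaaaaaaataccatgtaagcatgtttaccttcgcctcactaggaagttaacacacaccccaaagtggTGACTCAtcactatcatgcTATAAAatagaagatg
Mmp12: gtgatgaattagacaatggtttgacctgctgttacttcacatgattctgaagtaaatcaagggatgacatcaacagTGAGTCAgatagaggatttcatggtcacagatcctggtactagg
Mmp1b: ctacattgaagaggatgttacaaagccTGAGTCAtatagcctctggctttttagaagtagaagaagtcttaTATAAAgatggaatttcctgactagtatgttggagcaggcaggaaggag
Mmp1a: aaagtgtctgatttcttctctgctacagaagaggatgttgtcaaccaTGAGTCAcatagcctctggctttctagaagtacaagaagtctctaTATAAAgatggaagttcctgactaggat
Mmp7: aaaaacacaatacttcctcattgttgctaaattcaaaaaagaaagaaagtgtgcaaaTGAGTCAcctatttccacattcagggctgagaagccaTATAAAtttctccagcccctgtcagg
A match is a run of letters and not a measured binding site. Mmp3, Mmp10, Mmp13 and Mmp12 gave signal above background on all 6 arrays, Mmp1b on 5, and Mmp1a and Mmp7 on none, so genes with the site were found among both the detected and the undetected. The promoters printed for Mmp1b and Mmp1a, genes of the same duplicated pair, both had the AP-1 site and the TATA letters.

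TM3 cells gave signal for most of the family. In all, 35 of 51 members had a probe well above background on all 6 arrays. All 4 TIMPs, all 3 procollagen N-proteinases and both gelatinases were above background on at least all 3 control arrays. Among the collagenases, which open the triple helix of fibrillar collagen, Mmp8 and Mmp13 were above background on all 6 arrays, and Mmp1b on 3 control and 2 PNP arrays. Adamts3 was above background on 3 control arrays and 1 PNP array. A further 11 members were above background on no array: Mmp1a, Mmp7, Mmp15, Mmp20, Mmp21, Mmp25, Adamts8, Adamts12, Adamts15, Adamts19 and Adamtsl3. Their 13 probes had a median scaled log2 signal of -7.70, where the lowest signal called above background lay between -5.66 and -5.33 on the 6 arrays. Adamts16, Adamts17 and Adamtsl2 were above background on some arrays but on no complete group.

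**Figure D1:**
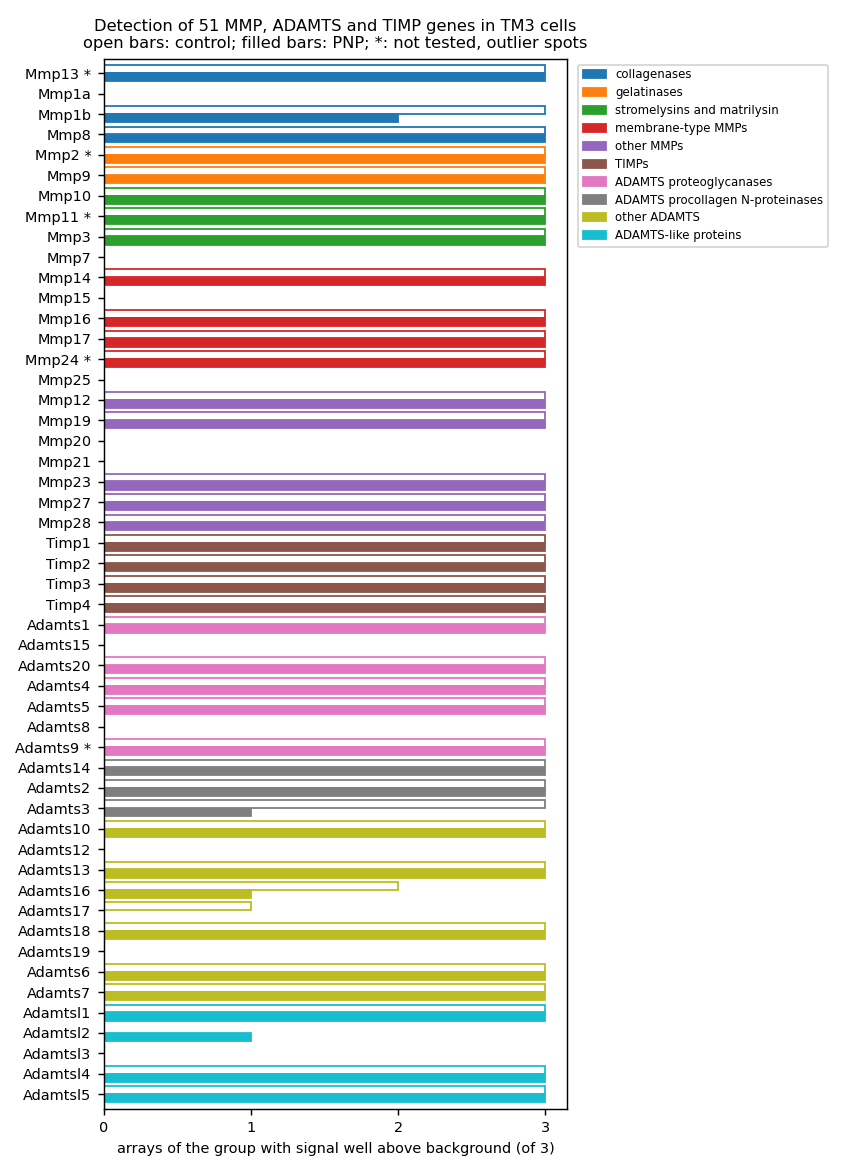
Number of arrays of each group, out of 3, on which at least 1 probe of a gene was well above background, for 51 genes coloured by role (open bars control, filled bars PNP). TIMPs, gelatinases and procollagen N-proteinases have bars for every gene, while 11 genes have none; an asterisk marks the 5 genes above background whose spots were left out as outliers.

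The number of members above background was 38, 38 and 38 on the control arrays and 35, 38 and 37 on the PNP arrays. The groups met at 38, and the mean difference of -1.33 members had an exact two-sided permutation p of 0.4, where 0.1 is the smallest p that 3 against 3 allows.

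The spots above background were 59.9% to 62.6% of the spots on each array, and none was saturated. Of 7 Leydig markers with values, Star and Nr5a1 were above background on all 6 arrays, while Cyp11a1, Hsd3b6 and Lhcgr were on none. Cyp17a1 was above background on 3 control and 2 PNP arrays, and Hsd3b1 on 1 control array. Insl3, also listed, had no value. All 6 fibroblast and all 6 peritubular myoid markers were above background on all 6 arrays, as were 6 of 10 Sertoli, 5 of 7 macrophage and leukocyte, 3 of 7 germ cell and 0 of 5 endothelial markers. Their part in the levels of the family was not tested.

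In the comparison of PNP with control cells, 32 members could be tested on the scaled log2 signal, which is log2 of the processed signal minus the 75th percentile of the array. With limma and Benjamini-Hochberg adjustment over 13138 genes, 0 of the 32 members passed 0.05, as 0 of all genes did (0%), with 856 genes at an unadjusted p below 0.05. Among the members, 18 were higher (56.2%, against 63% of all genes) and 14 lower in PNP cells. Their median log2 difference was 0.05, against 0.04 over all genes. With this scaling, the 95% interval of the difference lay within 2-fold for 32 of 32 members and within 1.5-fold for 27.

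**Figure D2:**
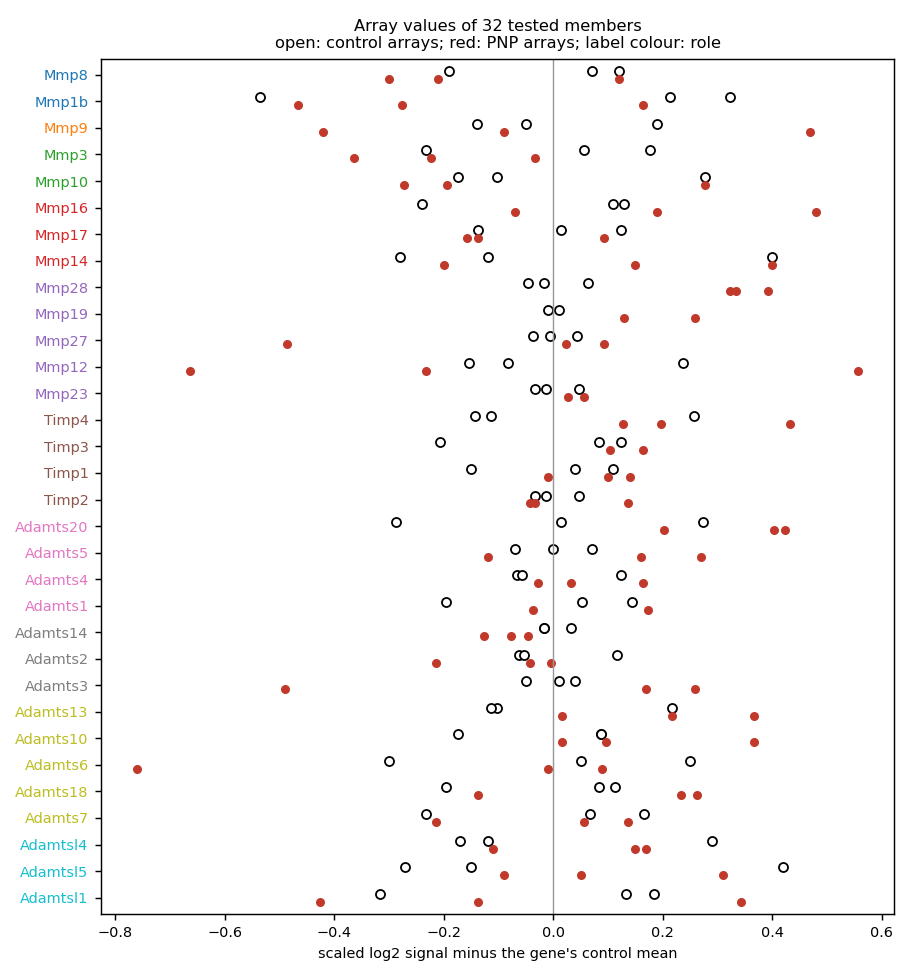
Scaled log2 signal of each array minus the gene's control mean for the 32 tested members (open circles control, red circles PNP). The red and open circles intermingle for most genes; for Mmp28 each of the 3 PNP points lies to the right of each control point.

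That count of 0 depended on 1 step of the scaling. Spots that the scanner software marked as outliers were left out of all values, and the 75th percentile was taken over all non-control spots. Where the percentile was taken after those spots had been left out, 20 of the 32 members passed 0.05 (62.5%), as did 9343 of 13138 genes (71.1%), and 98.9% of all genes were higher in PNP cells. Quantile normalization after leaving them out gave 5 members, Mmp28, Timp4, Adamts10, Adamts5 and Adamts4, and 2490 genes (19%), and the 75th percentile over detected probes gave 0 members and 62 genes (0.472%). In these 3 forms the median of all genes moved to 0.46, 0.32 and 0.30, and the members moved with it. Relative to that median the members lay between -0.27 and 0.31 under the first form. The marked spots were a larger share of the bright spots on every PNP array: above the 75th percentile they were 26.6%, 20.8% and 19.0% on the control arrays and 40.5%, 39.3% and 32.7% on the PNP arrays. Leaving them out lowered the percentile from 12.39, 12.44 and 12.50 to 11.18, 11.36 and 11.57 on the control arrays and from 12.14, 12.37 and 12.30 to 10.66, 10.83 and 10.84 on the PNP arrays. With the marked spots kept throughout, 0 of 37 members and 0 of 15046 genes passed, and the authors' deposited values gave the same counts. Directions below are those of the scaling over all spots.

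**Figure D3:**
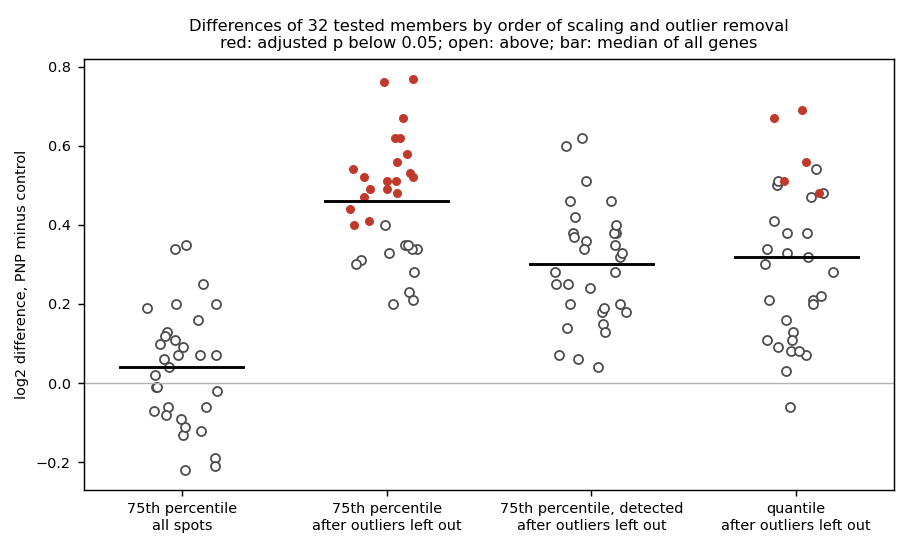
Log2 difference, PNP minus control, of the 32 tested members (points) with the scaling over all spots and with 3 scalings computed after outlier spots were left out; the bar is the median of all genes. Red points passed an adjusted p of 0.05: 0, 20, 0 and 5 from left to right, and the members shift with the bar, from 0.04 to 0.46, 0.30 and 0.32.

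Mmp28, an MMP known as epilysin, was the 1 member with an unadjusted p below 0.05 (3.12% of the members, against 6.52% of all genes). Its scaled log2 signal was 0.79, 0.68 and 0.71 on the control arrays and 1.12, 1.05 and 1.06 on the PNP arrays. Every PNP array was above every control array. The difference was 0.35 (SE 0.09, 95% interval 0.15 to 0.56), or 1.28-fold, with an unadjusted limma p of 0.00394 and an adjusted p of 0.74. A second probe of the gene differed by 0.18 in the same direction. Relative to the median of all genes, Mmp28 was higher by 0.37, 0.31 and 0.31 under quantile normalization, the detected-probe percentile and the 75th percentile after outlier spots were left out. Both percentile forms subtract a constant from each array, so their 0.31 follows from the scaling over all spots and is no further check.

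Mmp28, Mmp19 and Adamts14 were the 3 members whose PNP and control arrays did not overlap (9.38%, against 13.4% of all genes). Mmp19, which cuts basement membrane proteins, was measured at 1.61 and 1.63 on 2 control arrays and at 1.88 and 1.75 on 2 PNP arrays, its other spots being outliers. Its difference was 0.19 (-0.11 to 0.50) with an adjusted p of 0.878, and its other probe differed by 0.09. With outlier spots kept, control 3 was at 1.76 for Mmp19, above PNP 3 at 1.75, so the groups overlapped. In that setting 2 of 37 members had groups apart (11% of all genes). Adamts14, a procollagen N-proteinase, was at 1.30, 1.35 and 1.30 on the control arrays and at 1.24, 1.27 and 1.19 on the PNP arrays. Its difference was -0.08 (-0.28 to 0.12; adjusted p 0.946), and its other probe differed by 0.03 in the opposite direction. That probe had outlier spots on 2 arrays, and with these kept it differed by -0.04, in the same direction. Where fewer arrays had to stay apart, the count was 8 of 32 without control 1 (26% of all genes), 6 of 32 without control 2 (20.6%), 8 of 31 without PNP 1 (22.5%) and 7 of 29 without PNP 2 (33.5%). It was 3 without control 3 (16.9% of all genes) and 3 without PNP 3 (19.9%).

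The stromelysins cut proteoglycans and laminin and activate other MMP precursors. Mmp3 (stromelysin-1) was at -0.38, -0.79 and -0.50 on the control arrays and at -0.92, -0.59 and -0.78 on the PNP arrays. The lowest control array lay below 2 of the 3 PNP arrays. The difference was -0.21 (SE 0.14, -0.52 to 0.11), or 0.866-fold, with an adjusted p of 0.878. Mmp10 (stromelysin-2) was at -2.10, -1.72 and -2.17 on the control arrays and at -2.19, -1.72 and -2.27 on the PNP arrays, a difference of -0.06 (-0.47 to 0.34). Mmp11 was above background on all 6 arrays but lost 3 arrays to outlier spots; with these kept, its difference was -0.15 (-0.47 to 0.16).

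Of the collagenases, Mmp8 was at -2.25, -2.56 and -2.30 on the control arrays and at -2.25, -2.67 and -2.58 on the PNP arrays, a difference of -0.13 (-0.46 to 0.19). Mmp1b was at -4.57, -5.43 and -4.68 on the control arrays and at -5.36, -4.73 and -5.17 on the PNP arrays, a difference of -0.19 (-0.75 to 0.38). Both groups spanned nearly the same range for Mmp1b. Mmp13 lost 4 arrays to outlier spots; with these kept it ranged from 0.61 to 1.66 on the control arrays and from 0.67 to 1.30 on the PNP arrays, a difference of -0.17 (-0.78 to 0.45).

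The gelatinases cut denatured collagen and type IV collagen of basement membranes. Mmp9 was at -4.18, -3.94 and -4.27 on the control arrays and at -4.22, -3.66 and -4.55 on the PNP arrays. PNP cells held both its highest and its lowest array, and the difference was -0.01 (-0.50 to 0.47). Mmp2, measured with outlier spots kept, was at 1.76, 1.98 and 1.73 on the control arrays and at 2.12, 1.72 and 1.85 on the PNP arrays, a difference of 0.07 (-0.23 to 0.37; adjusted p 0.95).

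The membrane-type MMPs act at the cell surface, and Mmp14 activates the Mmp2 precursor there. Mmp14 differed by 0.11 (-0.36 to 0.59). Mmp16 was at -3.07, -3.42 and -3.05 on the control arrays and at -2.70, -3.25 and -2.99 on the PNP arrays, a difference of 0.20 (-0.17 to 0.58), and its other probe differed by -0.10. Mmp17 was at -3.12, -3.27 and -3.01 on the control arrays and at -3.27, -3.04 and -3.29 on the PNP arrays, a difference of -0.06 (-0.33 to 0.20), and its other probe differed by 0.30. Neither gene had probes of one direction. Mmp24, with outlier spots kept, differed by -0.14 (-0.44 to 0.16). Of the other MMPs, Mmp12 (macrophage elastase), Mmp23 and Mmp27 differed by -0.11, 0.04 and -0.12.

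All 4 TIMPs had positive differences, of 0.02 to 0.25, as did 63% of all genes. But Timp1, Timp2 and Timp3 were negative under quantile normalization or in the authors' deposited values. Timp4 was at -0.17, -0.57 and -0.54 on the control arrays and at -0.30, 0.0056 and -0.23 on the PNP arrays. Its difference was 0.25 (SE 0.14, -0.07 to 0.57; adjusted p 0.845), with 1 control array above 2 of the PNP arrays. Timp3, a TIMP that stays bound to the matrix, was at 3.39, 3.06 and 3.35 on the control arrays and at 3.43 and 3.37 on 2 PNP arrays, a difference of 0.13 (-0.18 to 0.45). Timp1 was at 3.00, 2.74 and 2.93 on the control arrays and at 3.03, 2.99 and 2.88 on the PNP arrays, a difference of 0.07 (-0.17 to 0.32). Timp2, which also takes part in the activation of the Mmp2 precursor, was at 3.06, 3.12 and 3.04 on the control arrays and at 3.21, 3.03 and 3.04 on the PNP arrays, a difference of 0.02 (-0.20 to 0.24). In each of the 4 the groups overlapped.

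The ADAMTS proteoglycanases cut aggrecan and versican, and their 4 tested members had positive differences of 0.06 to 0.34, Adamts5 being negative in the authors' deposited values and with outlier spots kept. Adamts20 was at -4.55, -4.81 and -5.11 on the control arrays and at -4.62, -4.42 and -4.40 on the PNP arrays. Its difference was 0.34 (SE 0.15, -0.0040 to 0.69) with an unadjusted limma p of 0.0521 and an adjusted p of 0.766. The other probe of Adamts20 was above background on no array. The lowest signal called above background was -5.66 to -5.33, not far below its values. Adamts5 was at -1.26, -1.40 and -1.33 on the control arrays and at -1.45, -1.06 and -1.17 on the PNP arrays, a difference of 0.10 (-0.17 to 0.38). With outlier spots kept a brighter probe stood for Adamts5 and differed by -0.21. Adamts1 and Adamts4 differed by 0.07 and 0.06, and the other probes of Adamts4 by -0.14 and 0.03. Adamts9, with all 6 of its values marked as outliers, was at 0.79, 1.02 and 0.99 on the control arrays and at 0.53, 0.78 and 0.82 on the PNP arrays, a difference of -0.22 (-0.50 to 0.05; adjusted p 0.856).

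The procollagen N-proteinases trim the amino end of fibrillar procollagens, and all 3 had negative differences, of -0.09 to -0.02. Adamts3 entered the test through the control group alone, as Mmp1b did among the collagenases, so the filter bears on the sign of both; with signal required on all 6 arrays, neither was tested and 18 of 30 members were higher. Adamts2 was at 2.38, 2.20 and 2.21 on the control arrays and at 2.26, 2.22 and 2.05 on the PNP arrays, a difference of -0.09 (-0.33 to 0.15). The signs of all 3 turned positive with each of the 3 scalings computed after outlier spots were left out.

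Among the other ADAMTS genes, Adamts13, the protease of von Willebrand factor, was at -4.81, -5.13 and -5.14 on the control arrays and at -5.01, -4.66 and -4.81 on the PNP arrays, a difference of 0.20 (-0.11 to 0.51; adjusted p 0.878). These values were close to the lowest signal called above background, and its other probe was above background on no array. Adamts10, which acts on fibrillin microfibrils, was at -1.58, -1.58 and -1.84 on the control arrays and at -1.30, -1.65 and -1.57 on the PNP arrays, a difference of 0.16 (-0.14 to 0.45). The groups overlapped for both. Adamts6, Adamts7 and Adamts18 differed by -0.22, -0.0091 and 0.12. Of the ADAMTS-like proteins, Adamtsl4 was at -0.59, -0.18 and -0.64 on the control arrays and at -0.32, -0.58 and -0.30 on the PNP arrays, a difference of 0.07 (-0.27 to 0.41). Adamtsl5 was at -1.70, -1.01 and -1.58 on the control arrays and at -1.12, -1.52 and -1.38 on the PNP arrays, a difference of 0.09 (-0.35 to 0.53). For both, the control arrays spanned the values of all PNP arrays. Adamtsl1 differed by -0.07 and its other probe by 0.27, and the other probe of Adamtsl4 differed by -0.13. For 15 members, more than 1 probe was above background on all arrays of a group and had a difference. The probes had the same sign in 8 and mixed signs in 7. The 7 were Adamts14, Adamts4, Adamtsl1, Adamtsl4, Mmp12, Mmp16 and Mmp17. Timp3, among the 8, and Adamts14 were counted through a probe with fewer values than the test required. Outlier spots had been left out on 4 and 2 arrays of these probes.

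**Figure D4:**
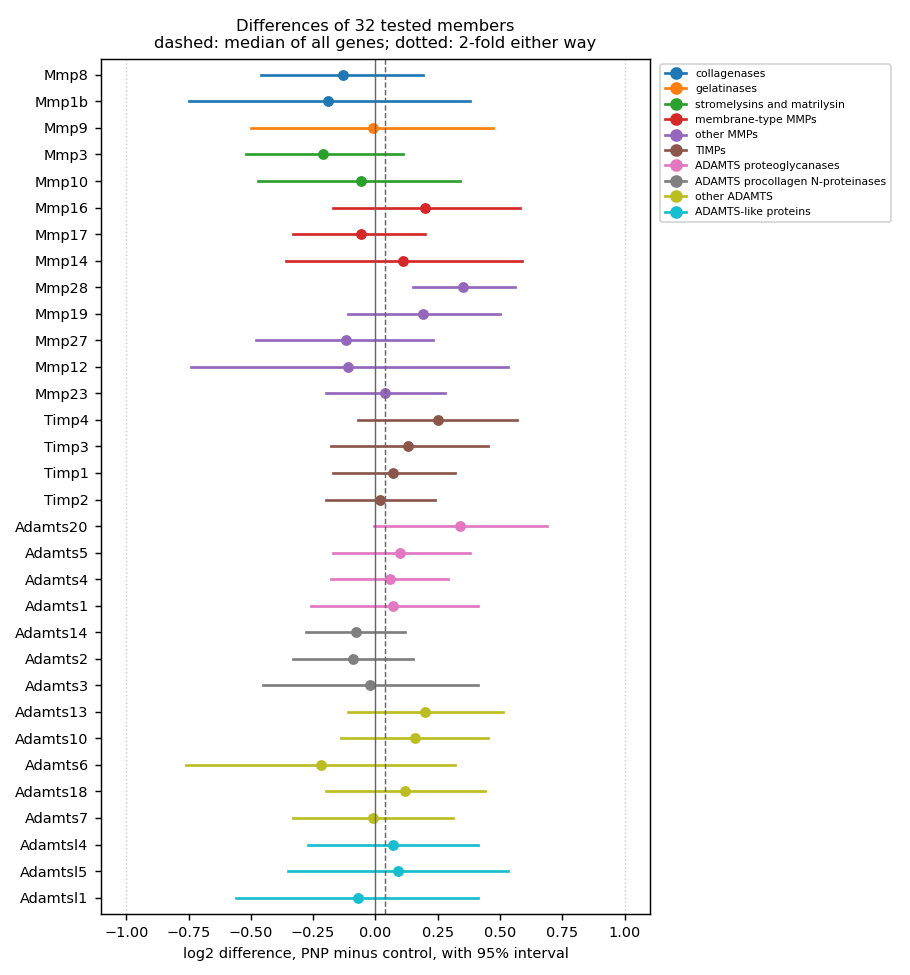
Log2 difference, PNP minus control, with its 95% interval from limma for the 32 tested members, coloured by role; the dashed line is the median of all genes (0.04) and the dotted lines mark 2-fold. Of the 32 intervals, drawn for the scaling over all spots, that of Mmp28 (0.15 to 0.56) lies wholly above 0, and all lie within 2-fold.

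The position of an array on the slide moved with several members. Control 1, control 3 and PNP 2 lay in odd columns of the slide, and control 2, PNP 1 and PNP 3 in even columns. The control arrays and PNP 1 lay in row 1 of the slide, and PNP 2 and PNP 3 in row 2. Odd and even arrays did not overlap for 9 of 32 members (28.1%), against 20.4% of all genes. Mmp3 was at -0.38, -0.50 and -0.59 in odd columns and at -0.79, -0.92 and -0.78 in even columns. Mmp1b and Mmp17 were also higher in odd columns, by 0.66 and 0.22. Mmp14 was at -1.36, -1.52 and -1.44 in odd columns and at -0.84, -0.84 and -1.09 in even columns. Adamtsl5, Adamtsl4, Adamts1, Adamts10 and Mmp19 were also higher in even columns, by 0.43, 0.34, 0.22, 0.21 and 0.15, Mmp19 with 1 odd array measured. The other probes of Adamtsl4 and Adamtsl5 moved with the column the same way, by 0.37 and 0.23 (even minus odd), while that of Adamts10 moved the other way, by -0.15. The count of 9 was 8 to 12 of 32 under the other scalings over all spots and normexp (17.5% to 23% of all genes), and 9 of 37 in the authors' values (19.4%). After outlier spots were left out it was 4 of 32 under quantile normalization (8.4% of all genes), 6 under the detected-probe percentile (8.91%) and 3 under the 75th percentile (5.37%).

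**Figure D5:**
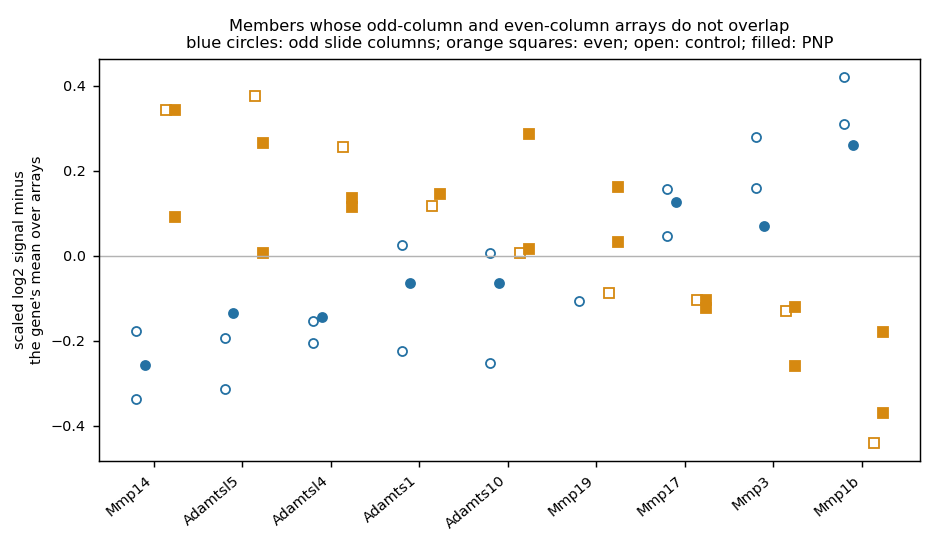
Scaled log2 signal minus the gene's mean over its arrays for the 9 members whose odd-column arrays (blue circles) and even-column arrays (orange squares) do not overlap; open symbols are control and filled symbols PNP. Mmp14 and 5 other genes are higher in even columns, and Mmp17, Mmp3 and Mmp1b in odd columns; Mmp19 has no PNP value in an odd column.

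Within the columns, the difference of Mmp28 was 0.30 in odd and 0.42 in even columns, and 0.36 with the column as a block (limma adjusted p 0.505). That of Mmp3 was -0.15 and -0.06, and -0.11 with the block, against -0.21 without it. Timp4 differed by 0.36 and 0.30 within columns. Over the tested members, the 2 within-column differences had the same sign for 17 and opposite signs for 14. Whether the position of the array set these values was not tested.

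The partners of the family were read from the same fit. Of 17 tested activators, inhibitors and cell surface partners (24 listed), 0 passed the adjusted threshold; 10 were higher and 7 lower, with a median of 0.09. Sdc1, a cell surface proteoglycan that MMPs shed, was at -3.81, -3.91 and -4.01 on the control arrays and at -3.60, -3.64 and -3.77 on the PNP arrays, a difference of 0.24 (0.01 to 0.47; limma adjusted p 0.74). Every PNP array was above every control array for Sdc1. The groups did not overlap for 3 of these 17 genes, against 13.4% of all genes. Serpine2, a protease inhibitor, differed by 0.36 (-0.03 to 0.74). Of 11 tested ADAM proteases and meprins (16 listed), 0 passed, and Adam33 and Adam10, both membrane-bound proteases, differed by -0.20 (-0.42 to 0.03) and -0.26 (-0.60 to 0.08). For Adam33, the 1 gene of the 11 with groups apart, every PNP array was below every control array. Of 20 tested inducing signals and factors (24 listed), 0 passed, 10 were higher and 10 lower. Fosb, a Fos protein of AP-1, differed by 0.33 (-0.0045 to 0.66), and Tnf, a cytokine that induces MMPs, by 0.28 (-0.01 to 0.57). Of 17 tested matrix substrates (29 listed), 0 passed, and Fbn2 and Lamb1, a fibrillin and a laminin chain, differed by 0.16 (-0.11 to 0.43) and 0.15 (-0.12 to 0.43).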

How the data were processed

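Total RNA of 6 TM3 samples, 3 without and 3 with 10 µM PNP for 24 h, was hybridised to 1-colour Agilent arrays, and samples were grouped by the dose in the labels. The deposited scanner files hold intensity values made with Agilent Feature Extraction 11.5.1.1, per the file headers (version 10.7 of Agilent Feature Extraction in the submitters' processing notes). Cy3 is the dye in the labels, yet the columns are those of the red channel. Per the file headers the processed signal is background-subtracted and detrended, with low values replaced by a surrogate and no scaling between arrays. The table of normalized values that the authors deposited is in log2 (column medians 8.27; uncentred, in the direction of the scanner signal; each column correlated with its own array at r of at least 0.9996); its normalization is not stated in the sources used here.

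R 4.3.3 with limma 3.58.1 and the data.table package (version 1.17.8) was used. The 75th percentile of the 59305 non-control spots was subtracted from the log2 signal of an array, spots marked as outliers were left out, and spots of a probe were averaged. A probe counted as above background on an array if at least 0.5 of its spots did, and was tested if above background on all 3 arrays of a group with at least 2 values per group. A missing value was left missing. The brightest tested probe stood for a gene. Probes were named through RefSeq accessions (GRCm38.p6), 33767 of 56605. lmFit and eBayes were fitted on 13138 genes, with Benjamini-Hochberg adjustment and a threshold of 0.05; the fit was tested on simulated data. Array counts were compared with exact permutation tests. Alternatives covered scaling, background correction (normexp, offset 50, on the median signal, since the files hold no mean signal), filters, probes, variance, blocks, weights and single arrays left out.

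The plan did not state whether scaling comes before or after leaving out outlier spots. Quantile normalization and the detected-probe percentile were first computed after, and were changed to before, as in the scaling over all spots, once their results had been seen; both forms are reported, and the 75th percentile after leaving out outlier spots was added. The count by slide column under other scalings was also added after seeing the data.

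Members, lists and tests were chosen with earlier results of these data known. Values are given for Mmp3, all TIMPs, members with unadjusted p below 0.05 or with groups apart, and the 2 of smallest p in each role group and each partner list; other members and the 5 lost to outlier spots are given by their differences. The main fit did not pair the samples by replicate number. Same-numbered deviations correlated at -0.312, -0.224 and -0.0259. Control and PNP arrays of the same number never lay both in odd or both in even columns. These correlations therefore cannot tell whether the samples were paired.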

Additional observations from a re-analysis of the deposited data

How the results depend on the processing

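With every other setting that scaled over all spots or used the authors' values, 0 members were called, and Mmp28 kept a positive difference (0.27 to 0.40), as did Timp4, Adamts20, Adamts13, Adamts10, Mmp16 and Mmp19; Mmp3 stayed negative (-0.37 to -0.11). These ranges leave out the differences within slide columns, where Mmp28 was 0.30 and 0.42, Mmp3 -0.15 and -0.06 and Mmp16 -0.19 and 0.58 (odd and even). With the replicate block, 0 genes and 0 members were called, the members' median was 0.06, and no call changed. The genes called were 1 with a trended robust variance and 1 with the slide column as a block, and 0 to 23 with 1 array left out, the highest without PNP 1. The members' median moved to -0.02 with median scaling, -0.09 in the authors' deposited values and 0.13 with the slide row as a block, and was -0.0025 to 0.07 with 1 array left out. The control arrays and PNP 1 lay in slide row 1, and PNP 2 and PNP 3 in row 2. The row-block differences, the -0.37 of Mmp3 among them, thus compare PNP 1 alone with the controls. They cannot tell a treatment difference from that of 1 array. Members with groups apart were 9 of 46 with no filter on dim probes (26% of all genes) and 3 to 8 with 1 array left out (16.9% to 33.5% of all genes). The difference in members above background was 0 when positive and significant signal was counted, and -2 to -0.5 with 1 array left out.

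The order of scaling and leaving out outlier spots changed most. Done after, quantile normalization gave 2490 genes and 5 members called, a median of 0.31, 13 members with groups apart (55.7% of all genes) and 4 with slide columns apart (8.4%). The 75th percentile over detected probes gave 62 genes and 0 members called, a median of 0.30 and 13 members apart (50.2% of all genes). The 75th percentile over all probes gave 9343 genes and 20 members called, a median of 0.47, 18 members apart (74.4% of all genes) and 3 with slide columns apart (5.37%). Of the 32 members, 31 were higher in PNP cells in the first form and 32 in the other two. For the 75th percentile over all probes, the fit differed from the main one only in the value subtracted from each array. That value dropped further on each PNP array than on any control array, which gives the shift of this form. Why more bright spots were marked on the PNP arrays was not tested, nor was the cause of the quantile result. All 14 negative differences thus became positive, but for Mmp1b in the first form; in that order the named members were Mmp3 (0.22, 0.06 and 0.21), Adamts14 (0.21, 0.18 and 0.34), Mmp10 (0.30, 0.20 and 0.35), Mmp17 (0.21, 0.20 and 0.35), Mmp8 (0.20, 0.13 and 0.28), Adamts2 (0.08, 0.18 and 0.33) and Mmp9 (0.16, 0.25 and 0.40), and Mmp1b in the later 2 (0.07 and 0.23).

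Other signs also turned, and the cause was not tested. Timp2 was -0.04 with median scaling, -0.10 with quantile normalization, -0.09 in the authors' values and -0.0087 with the slide column as a block. Timp1 was -0.03 with quantile normalization and in the authors' values, where Timp3 was -0.06. Adamts5 was -0.21 in the authors' values and with outlier spots kept. With the slide row as a block, which compares PNP 1 alone with the controls, Adamts5 was -0.12 and Mmp8 0.11. With normexp, Mmp10, Mmp17, Mmp8 and Mmp9 were 0.04, 0.02, 0.02 and 0.07. With the mean over a gene's probes, Mmp17 was 0.12 and Adamtsl4 -0.03. With the slide column as a block, Mmp17, Mmp1b, Adamtsl4, Adamtsl5 and Mmp9 were 0.01, 0.03, -0.05, -0.06 and 0.06. With 1 array left out, the ranges that crossed 0 were -0.23 to 0.07 for Mmp10, -0.26 to 0.19 for Mmp9, -0.04 to 0.05 for Timp2, -0.01 to 0.22 for Adamtsl4 and -0.05 to 0.30 for Adamtsl5. With 3 arrays a group, the median 95% interval of a member was 0.32 either way on the log2 scale, and members below background carry no usable difference.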
